A study of Mus musculus with 16 samples.

Results

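Transcript levels of 6 Toll-like receptor genes (Tlr2, Tlr3, Tlr4, Tlr7, Tlr9 and Tlr12), of the receptor chaperone gene Unc93b1, of the adaptor genes Myd88 and Ticam1 and of the co-receptor gene Cd14 were examined in type 1 conventional dendritic cells (cDC1). These 10 genes were chosen by name out of 19938 genes measured on 16 Affymetrix arrays, and each was read from the single probe set that carries its symbol. The cDC1 were sorted from inguinal lymph nodes of C57BL/6 mice labelled heterozygous (Het) or knockout (KO) for Wdfy4, a BEACH-domain gene that cDC1 need for cross-presentation of cell-associated antigen. All mice of all groups had received regressor tumours, a kind that the host rejects, in the back flank 6 days earlier, so neither tumour-free mice nor mice with both Wdfy4 copies intact were among the groups. Nodes were taken from the flank that drains the tumour or from the other flank and were digested with collagenase B and DNase I before sorting. Genotype and node together made 4 groups (Het draining, KO draining, and both genotypes on the non-draining side) of 4 arrays, numbered 1 to 4 in the labels. The labels give no age and do not say whether arrays came from separate or pooled mice, so p-values reflect only how these samples scatter, and that scatter may be technical.

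Toll-like receptors recognise conserved microbial molecules and nucleic acids. TLR2 and TLR4 sit at the cell surface, where CD14 hands ligands to them. TLR3, TLR7, TLR9 and TLR12 work in endosomes, which they reach with the help of UNC93B1. MYD88 carries the signal of nearly all these receptors, while TICAM1 (also called TRIF) carries that of TLR3 and part of that of TLR4. Mouse cDC1 are known for TLR3, the sensor of double-stranded RNA, through which they respond to RNA from engulfed dead cells.

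Genes typical of cDC1 were bright in all 16 arrays, but markers of other cells also gave signal, and the genotype had no sharp check. On the log2 scale, Clec9a, a receptor for dead cells, lay between 10.01 and 10.80, Xcr1, a chemokine receptor of cDC1, between 10.28 and 11.29, and Batf3, a factor cDC1 need for their development, between 9.20 and 10.15 over the 16 arrays. Lyz2, a macrophage and monocyte marker, lay between 8.47 and 9.67, while the mean of all 13 such markers lay between 5.79 and 6.27. The mean of 11 T cell markers lay between 6.36 and 7.66. That of 8 skin migratory dendritic cell markers lay between 9.42 and 10.29, beside 9.62 to 9.997 for 12 cDC1 markers. Such levels do not give shares of cells, and the purity of the sorts was not tested. On the draining side Wdfy4 gave 11.12 ± 0.26 in KO against 11.52 ± 0.21 in Het cells (SD, n = 4 each). On the other side it gave 11.19 ± 0.32 in KO against 11.43 ± 0.29 in Het cells (SD, n = 4 each). The KO signal was lower on average but not lost, the ranges overlapped in both nodes, and the sources used here do not say whether the probe set lies inside the deleted part. Array medians lay between 38.6 and 40.8 intensity units, and the number of arrays limits the precision.

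The start regions of the genes on which the comparisons turn are shown first, since Tlr3 and Tlr9 were lower in arrays 3 and 4 with the group held fixed and Tlr12 had the smallest unadjusted p of the 10 between genotypes. RefSeq start regions (GRCm38.p6; 250 bases before to 50 after an annotated start) were at hand for 6 of the 10 genes. The Tlr9 stretch is chr9:106222348-106222597 (plus strand) and the Tlr12 stretch is chr4:128618620-128618869 (minus strand); both end just before the annotated start of the gene. For Tlr3 only 30 bases are shown, chr8:45410571-45410600 (minus strand), because the start used in the table lies inside the annotated span of the gene, chr8:45395665-45411075. Capitals mark a match to the NF-kappaB consensus in Tlr3 and to the AP-1 motif TGANTCA in Tlr9.

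Tlr3: gttgtttctGGGAGTTTCCtgcttttgagg
Tlr9: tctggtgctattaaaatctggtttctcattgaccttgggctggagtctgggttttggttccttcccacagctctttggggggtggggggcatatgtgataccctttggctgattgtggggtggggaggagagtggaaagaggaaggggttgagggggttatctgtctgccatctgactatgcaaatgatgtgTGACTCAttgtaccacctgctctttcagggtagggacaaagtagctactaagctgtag
Tlr12: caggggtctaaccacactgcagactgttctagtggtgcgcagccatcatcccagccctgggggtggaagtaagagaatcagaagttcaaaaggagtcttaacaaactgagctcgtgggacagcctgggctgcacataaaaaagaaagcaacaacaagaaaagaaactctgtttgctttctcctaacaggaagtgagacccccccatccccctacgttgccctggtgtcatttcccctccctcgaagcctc

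Besides these motifs, both strands were searched for the interferon response element, written as GAAA, any 2 bases and GAAA, and for the ETS-IRF composite, written as GGAA, any 2 bases and GAAA. Motifs that overlap were each counted. The NF-kappaB match of Tlr3 lay at bases -211 to -202 from the start used, and the AP-1 match of Tlr9 at bases -58 to -52. Tlr2 matched the NF-kappaB consensus at bases -173 to -163, where overlapping matches were counted on both strands, and again at the start itself. Myd88 matched the interferon response element at bases -40 to -31. Tlr12 and Ticam1 matched none of the 4 motifs in the 300 bases searched. Among all 32851 start regions of that length, 8.46% held the NF-kappaB consensus, 7.81% the AP-1 motif, 3.44% the interferon response element and 2.72% the ETS-IRF composite, which is how often such letters occur at a start. A match describes letters and says nothing of binding, nor does the lack of one.

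All levels below are log2(intensity + 1). Tlr3 had bright signals whose spread followed the number of the array rather than the group. In Het draining cells arrays 1 to 4 read 10.59, 10.48, 9.71 and 10.09, and in KO draining cells 9.99, 10.71, 9.99 and 9.47. In Het non-draining cells they read 9.99, 10.56, 9.38 and 9.39, and in KO non-draining cells 10.34, 10.90, 9.50 and 9.56. In 3 of the 4 groups both of arrays 3 and 4 lay below both of arrays 1 and 2, and array 2 was the highest in 3 groups. The group means, from 9.83 ± 0.56 in Het non-draining to 10.22 ± 0.40 in Het draining cells (SD, n = 4 each), did not differ beyond that spread.

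Tlr9, the endosomal sensor of unmethylated CpG DNA, read 8.92, 8.91, 8.84 and 8.95 in Het draining and 9.11, 8.98, 8.68 and 8.68 in KO draining cells. It read 9.14, 8.91, 8.47 and 8.40 in Het non-draining and 9.01, 9.19, 8.82 and 8.77 in KO non-draining cells. Het draining cells were the tightest group, and in the other 3 groups arrays 3 and 4 were the low ones. Group means ran from 8.73 ± 0.35 in Het non-draining to 8.95 ± 0.19 in KO non-draining cells (SD, n = 4 each), with all ranges overlapping.

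Tlr12, which encodes an endosomal receptor for a profilin of parasites, separated KO from Het cells in the non-draining node. The KO non-draining arrays read 7.04, 6.75, 6.95 and 6.83, and the Het non-draining arrays 6.60, 6.38, 6.49 and 6.41. No Het array there reached the lowest KO array. In the draining node the ranges covered each other, with 6.33, 6.37, 6.93 and 6.68 in KO and 6.34, 6.73, 7.04 and 6.52 in Het cells. From high to low the group means were 6.89 ± 0.12 in KO non-draining, 6.66 ± 0.30 in Het draining, 6.58 ± 0.28 in KO draining and 6.47 ± 0.10 in Het non-draining cells (SD, n = 4 each), and neighbours in that order overlapped.

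Tlr7, the endosomal sensor of single-stranded RNA, and Tlr4, the receptor for bacterial lipopolysaccharide, were both dim. Tlr7 lay between 3.83 and 4.63 and Tlr4 between 3.76 and 4.21 over the 16 arrays, at percentiles 21.0 and 16.9 of the mean signals of all genes. RMA compresses dim signals, so differences of these 2 genes can be understated, and a dim probe set does not show that the gene was silent. Tlr7 group means ran from 4.10 ± 0.20 in KO draining to 4.41 ± 0.27 in Het draining cells, and those of Tlr4 from 3.89 ± 0.13 in Het non-draining to 4.07 ± 0.07 in KO non-draining cells (SD, n = 4 each).

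Unc93b1, whose product escorts the endosomal receptors out of the endoplasmic reticulum, read 9.17, 9.64, 9.28 and 9.04 in Het draining and 9.54, 9.51, 9.44 and 9.32 in KO draining cells. It read 9.39, 9.66, 9.14 and 9.04 in Het non-draining and 9.44, 9.91, 9.26 and 9.39 in KO non-draining cells. Arrays 3 and 4 lay below both of the others in every group except Het draining. The mean of KO cells exceeded that of Het cells in both nodes, by 0.17 ± 0.16 on the draining side and by 0.19 ± 0.16 on the other (SE), within the spread of the groups.

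Among the surface proteins, Tlr2, which recognises bacterial lipoproteins, read 7.85, 7.95, 7.78 and 7.80 in KO non-draining and 7.69, 7.56, 7.62 and 7.72 in Het non-draining cells, again with all KO arrays above all Het arrays. In the draining node it read 7.53, 7.24, 8.09 and 7.82 in KO and 7.65, 7.72, 7.84 and 7.42 in Het cells, so that KO draining cells held both the highest and the lowest array of all. Its SD was 0.37 in KO draining cells but 0.07 in each non-draining group (n = 4 each).

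Cd14, the co-receptor that presents lipopolysaccharide to TLR4 and also serves other receptors, read lower on average in the draining node of both genotypes. It read 7.004, 7.53, 6.75 and 6.94 in Het draining cells against 7.76, 7.70, 7.80 and 7.26 in Het non-draining cells. In KO cells it read 7.06, 6.79, 7.68 and 7.56 in the draining against 7.54, 7.84, 7.81 and 7.82 in the non-draining node. Draining arrays were mostly the lower ones in both genotypes, but the ranges overlapped: Het draining array 2 lay above Het non-draining array 4, and KO draining arrays 3 and 4 lay above KO non-draining array 1. The group means rose from 7.06 ± 0.34 in Het draining through 7.27 ± 0.42 in KO draining and 7.63 ± 0.25 in Het non-draining to 7.75 ± 0.14 in KO non-draining cells (SD, n = 4 each); neighbouring groups overlapped.

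The adaptors showed no separation of groups, and 1 array of Myd88 stood low. Myd88 read 6.54, 8.24, 7.93 and 8.04 in Het draining cells, where array 1 was the lowest of all 16, and between 7.72 and 8.41 in the other 12 arrays. Ticam1 read 7.94, 7.72, 7.49 and 7.61 in KO draining and 7.46, 7.20, 7.69 and 7.49 in Het draining cells, and between 7.25 and 7.76 in the non-draining groups. Its KO draining mean, 7.69 ± 0.19, was the highest of the 4 groups, and the other 3 lay between 7.46 and 7.49.

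**Figure D1:**
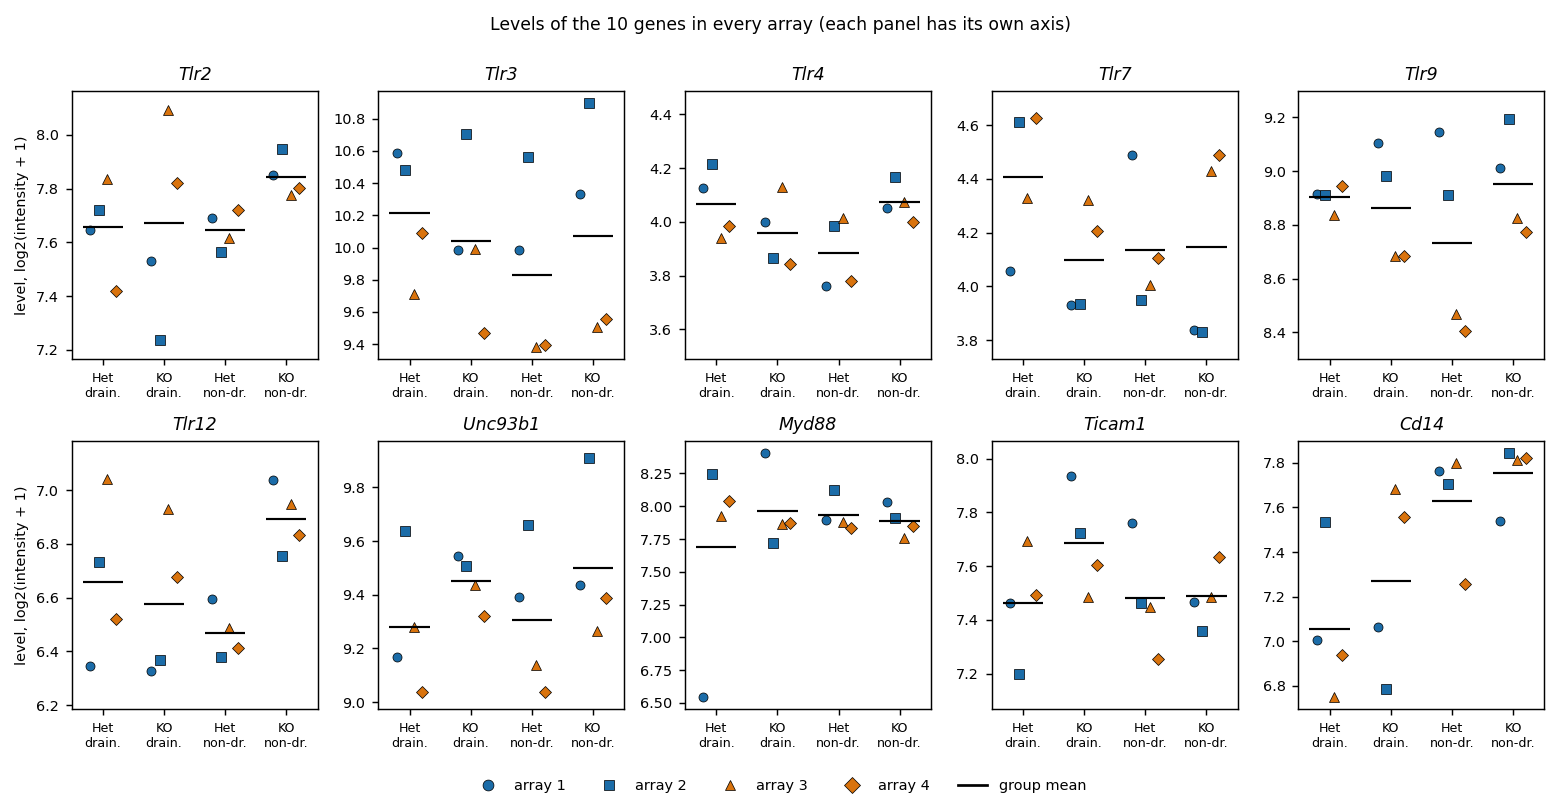
Level of each gene, log2(intensity + 1), in the 16 arrays by group; symbols give the array number (blue for arrays 1 and 2, orange for arrays 3 and 4), bars the group means, and each panel has its own axis. The orange symbols lie low for Tlr3, Tlr9 and Unc93b1, Tlr12 and Tlr2 separate KO from Het cells in the non-draining node, and the draining groups lie low for Cd14.

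The first question was whether loss of Wdfy4 or drainage from the tumour changed these transcripts. None of the 10 genes passed the threshold (adjusted p under 0.05 in limma, Benjamini-Hochberg adjustment over 19938 genes) in any of the 7 comparisons of genotype and node, where 0% of all genes passed. At an unadjusted p under 0.05 limma gave 675 genes (3.39%) between genotypes on the draining side and 494 (2.48%) on the non-draining side. Between nodes it gave 655 (3.29%) in Het cells and 421 (2.11%) in KO cells, and it gave 463 (2.32%) for the interaction, the difference between the genotype effects of the nodes. For the genotype difference averaged over both nodes it gave 696 (3.49%), and for the node difference averaged over both genotypes 610 (3.06%). Of the 10 genes, 0, 1, 1, 2, 2, 0 and 1 were among them, in that order. Bulk signal cannot tell fewer cells of a kind from less RNA per cell.

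In the non-draining node KO cells read higher than Het cells for 9 of the 10 genes, against 51.9% of all genes, with a median difference of 0.19 against 0.00 over all genes. Tlr12 was higher by 0.42 ± 0.15 (SE; 95% interval 0.11 to 0.74), and limma's unadjusted p was 0.0107 (adjusted p 1.00). The exact two-sided permutation test gave 0.0286, the smallest p that 4 against 4 arrays allow. Tlr2 was higher by 0.20 ± 0.14, with the same exact permutation p of 0.0286 but an unadjusted limma p of 0.184, where limma uses 1 pooled spread over all 4 groups and the permutation only these 8 arrays. Groups without overlap, KO above Het, were found for 1.2% of all genes in this comparison and for these 2 of the 10 genes. Leaving out each array in turn kept the Tlr12 difference between 0.38 and 0.47, and the difference came to 0.41 in arrays 1 and 2 alone and to 0.44 in arrays 3 and 4 alone.

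For the other genes in this comparison the sizes were smaller or rested on single arrays. Tlr9 differed by 0.22 ± 0.15, Unc93b1 by 0.19 ± 0.16, Tlr4 by 0.19 ± 0.09, Cd14 by 0.12 ± 0.20, and Tlr7, Ticam1 and Myd88 by between -0.04 and 0.01. Tlr3 differed by 0.24 ± 0.33, and by -0.03 without KO non-draining array 2. The Cd14 difference was -0.0011 without Het non-draining array 4 and that of Unc93b1 0.06 without KO non-draining array 2, while that of Tlr9 came to 0.08 in arrays 1 and 2 and to 0.36 in arrays 3 and 4. Other transcripts moved with the same contrast. KO cells read higher for 11 of 11 B cell markers (median 0.33) and for 0 of 11 T cell markers (median -0.29), for 10 of 12 cDC1 markers (median 0.20), and for 18 of 18 immediate early genes, which tissue digestion can induce (median 0.30). No gene of these 4 lists passed the adjusted threshold, and their part in the readings of the 10 genes was not tested.

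In the draining node 5 of the 10 genes read higher in KO cells and 5 lower, against 49.1% of all genes higher. The largest differences were -0.31 ± 0.18 for Tlr7, 0.28 ± 0.26 for Myd88 and 0.23 ± 0.13 for Ticam1, and no gene had groups without overlap, against 1.58% of all genes. The Myd88 difference was -0.10 without Het draining array 1. That of Ticam1 came to 0.50 in arrays 1 and 2 alone, to -0.05 in arrays 3 and 4 alone, and to 0.14 without Het draining array 2. The Cd14 difference of 0.22 ± 0.20 was made of -0.34 in arrays 1 and 2 and 0.78 in arrays 3 and 4. The 95% intervals were wide: that of Tlr3 ran from -0.89 to 0.53, that of Tlr9 from -0.36 to 0.28 and that of Tlr12 from -0.40 to 0.23. On this side KO cells read higher for 10 of 11 B cell markers (median 0.20), 11 of 11 T cell markers (median 0.27) and 17 of 18 immediate early genes (median 0.33). They read higher for only 4 of 12 cDC1 markers (median -0.02). The part of these lists in the 10 genes' readings was not tested.

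Both genotype contrasts were set against each other by the interaction. Tlr12 had -0.51 ± 0.21 (unadjusted p 0.0264 in limma) and Tlr4 -0.29 ± 0.13 (unadjusted p 0.042), each with an adjusted p of 1.00. The genotype effect of Tlr12 was -0.08 ± 0.15 on the draining and 0.42 ± 0.15 on the other side, and over single arrays left out the interaction stayed between -0.63 and -0.38. The interaction of the other 8 genes lay between -0.42 and 0.32, with unadjusted p-values of at least 0.226. Over both nodes together no gene differed by more than 0.18, the value of Unc93b1 (95% interval -0.06 to 0.42).

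Between nodes, Cd14 had the smallest p of the 10 genes, without passing the adjusted threshold. In Het cells it read lower on the draining side, with a difference of -0.57 ± 0.20 (SE, unadjusted limma p 0.00933, exact permutation p 0.0571). In KO cells the difference was -0.48 ± 0.20 (unadjusted limma p 0.0247, exact permutation p 0.0857). This KO value was uneven: it came to -0.77 in arrays 1 and 2 alone, to -0.20 in arrays 3 and 4 alone, and to -0.32 without KO draining array 2. The Het value came to -0.46 and -0.68 in the same sets. Over both genotypes it was -0.53 ± 0.14 (95% interval -0.82 to -0.24), for which limma's unadjusted p was 0.00142 (adjusted p 0.998). An exact two-sided permutation of node within genotypes gave 0.00571. It was the only one of the 10 genes with an unadjusted p under 0.05 in that mean, where 3.06% of all genes had one. The difference came to -0.62 in arrays 1 and 2 alone, to -0.44 in arrays 3 and 4 alone, and lay between -0.61 and -0.45 when single arrays were left out.

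Macrophages and monocytes carry much CD14, so their markers were read beside it. Over both genotypes 7 of 13 such markers read higher in the draining node, with a median of 0.01. Lyz2 read lower (-0.37 ± 0.14, unadjusted limma p 0.0195), while Csf1r (0.02 ± 0.08), Adgre1 (0.04 ± 0.08) and Fcgr1 (-0.05 ± 0.07) were close to 0. The mean level of the 13 markers lay between 5.83 and 6.06 in Het draining, 6.00 and 6.15 in Het non-draining, 5.79 and 6.27 in KO draining and 5.93 and 6.06 in KO non-draining cells. None of the 13 passed the adjusted threshold, and their part in the Cd14 difference was not tested.

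In Het cells 6 of the 10 genes read higher in the draining node, against 52.8% of all genes, with the largest values for Tlr3 (0.38 ± 0.33) and Tlr7 (0.27 ± 0.18). In KO cells 2 of the 10 read higher, against 50.7% of all genes. The largest values after Cd14 there were -0.32 ± 0.15 for Tlr12 (unadjusted limma p 0.0462) and 0.20 ± 0.13 for Ticam1. The Tlr12 value came to -0.55 in arrays 1 and 2 alone and to -0.09 in arrays 3 and 4 alone. The node difference of Myd88 in Het cells, -0.24 ± 0.26, was 0.14 without Het draining array 1. T cell markers read higher on the draining side for 0 of 11 in Het cells (median -0.39) and for 11 of 11 in KO cells (median 0.24). In KO cells 9 of 11 B cell markers (median -0.19), 10 of 12 cDC1 markers (median -0.09) and 13 of 18 immediate early genes (median -0.05) read lower there. None passed the adjusted threshold, and their part was not tested.

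**Figure D2:**
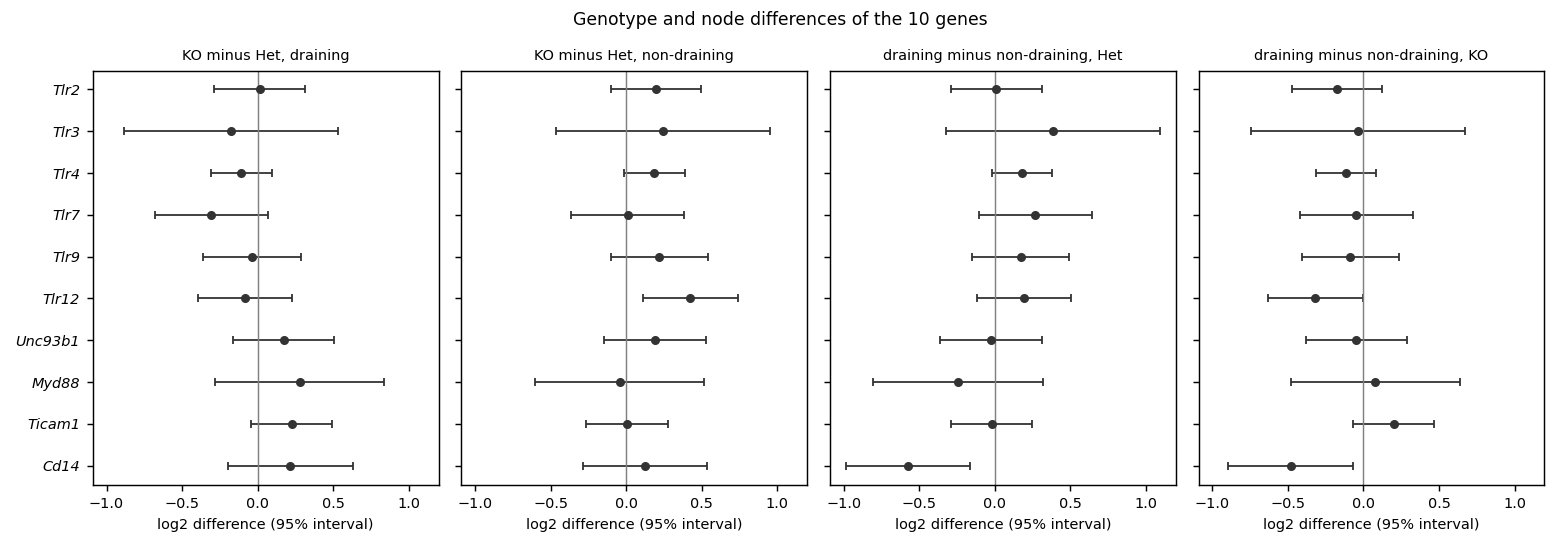
Log2 differences of the 10 genes in the 4 simple comparisons (KO minus Het in each node, draining minus non-draining in each genotype); points are limma estimates and bars unadjusted 95% intervals from 16 arrays. Only the bars of Tlr12 (KO minus Het in the non-draining node, and draining minus non-draining in KO cells) and of Cd14 (draining minus non-draining in both genotypes) leave out 0, and no value passed the adjusted threshold.

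The other genes of the receptor pathway were read from lists of related function. Across the 8 lists, with 4 other receptors, 6 co-receptors, 13 genes of receptor folding and traffic, 15 of proximal signalling, 6 transcription factors, 10 inhibitors, 17 induced genes and 8 cytosolic sensors, no gene passed the adjusted threshold in a comparison of genotype or node. In KO against Het cells of the non-draining node 3 of 4 other receptors read higher, Tlr13, a sensor of bacterial ribosomal RNA, by 0.63 ± 0.22 (unadjusted limma p 0.011). The Tlr13 difference came to 1.03 in arrays 1 and 2 alone and to 0.22 in arrays 3 and 4 alone. Cxcl10, a chemokine of the interferon response, read higher by 0.67 ± 0.17 (unadjusted p 0.00131) and Irf7, a factor that drives interferon genes, by 0.78 ± 0.28 (0.0118). The chemokine gene Cxcl9 read higher by 0.40 ± 0.17 (unadjusted limma p 0.0304). Ly96, whose product MD-2 binds lipopolysaccharide beside TLR4, read lower (-0.62 ± 0.27, unadjusted p 0.0385). Cxcl10 came to 0.56 in arrays 1 and 2 and 0.78 in arrays 3 and 4, Irf7 to -0.03 and 1.59, and Ly96 to -0.88 and -0.36, with -0.32 for Ly96 without KO non-draining array 2.

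In the draining node the smallest p of these lists belonged to Ptgs2, an enzyme of prostaglandin synthesis, which read higher in KO cells by 0.82 ± 0.22 (unadjusted limma p 0.00184). Irak2, a kinase of the MYD88 pathway, read higher by 0.25 ± 0.10 (0.0258). In arrays 1 and 2 and in arrays 3 and 4 Ptgs2 came to 0.77 and 0.87, and Irak2 to 0.38 and 0.12. Lgmn, of the list of receptor folding and traffic, read lower in KO cells (-0.53 ± 0.25, unadjusted limma p 0.049). Its difference in the non-draining node was -0.43 ± 0.25 (unadjusted limma p 0.102). Between nodes, Tlr13 read higher on the draining side in Het cells by 0.73 ± 0.22 (0.00396) and Cxcl10 by 0.53 ± 0.17 (0.00716), while in KO cells Cxcl10 read lower (-0.40 ± 0.17, 0.036). Acod1, of the same list of induced genes as Cxcl10, read lower on the draining side in Het cells (-0.45 ± 0.15, unadjusted limma p 0.0084). Of the 17 genes of that list 7 read higher and 10 lower there in Het cells. The dim Tlr8 read higher on that side in KO cells (0.42 ± 0.18, unadjusted limma p 0.0274). Ctsl, of the list of receptor folding and traffic, read lower (-0.32 ± 0.13, unadjusted limma p 0.0289). The interaction was -0.93 ± 0.25 for Cxcl10 (unadjusted p 0.00156) and -0.81 ± 0.31 for Tlr13 (0.0191); in arrays 1 and 2 and in arrays 3 and 4 it was -1.20 and -0.67 for Cxcl10, and -1.12 and -0.49 for Tlr13. The Cxcl10 difference in KO cells was -0.24 without KO draining array 2. All of these had an adjusted p of 1.00.

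The second question was how the genes varied with the number of the array. The labels do not say what the numbers stand for, and an earlier look at these data had shown that arrays 1 and 2 separate from arrays 3 and 4. The split was thus chosen from the data. Its counts and its p-values for single genes are therefore not independent evidence of a batch or of a difference between the sets. With the group held fixed, 2359 genes (11.8%) differed between these sets at an adjusted p under 0.05 in limma, 7.53% higher and 4.3% lower in arrays 3 and 4. That count ranged from 1460 to 3398 when 1 array was left out, and was more than 1.5 times smaller without Het draining array 3, KO draining array 4 or KO non-draining array 2 or 4. Of the 10 genes, 3 fell and 0 rose. They were Tlr3 (-0.81 ± 0.13, adjusted p 0.002), Tlr9 (-0.32 ± 0.07, adjusted p 0.0123) and Unc93b1 (-0.29 ± 0.09, adjusted p 0.0377). The other endosomal receptors read the other way without passing, Tlr7 by 0.23 ± 0.11 (adjusted p 0.18) and Tlr12 by 0.16 ± 0.10 (adjusted p 0.271).

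The level of Tlr3 was 10.44 ± 0.33 in arrays 1 and 2 and 9.64 ± 0.27 in arrays 3 and 4 (SD, n = 8 each). Its difference was -0.63 in Het draining, -0.62 in KO draining, -0.89 in Het non-draining and -1.09 in KO non-draining cells, thus of one sign in all groups. The exact permutation of arrays between the sets within groups gave 0.00309 for Tlr3, 0.00463 for Tlr9 and 0.00772 for Unc93b1. These p-values take the split as given, although it was chosen from the data, so they can be too small. With the same split, Tlr3 and Tlr9 passed the adjusted threshold without each of the 16 arrays in turn and in 7 of 7 other settings.

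Tlr9 was 9.02 ± 0.11 in arrays 1 and 2 and 8.70 ± 0.19 in arrays 3 and 4 (SD, n = 8 each), with differences of -0.02 in Het draining, -0.36 in KO draining, -0.59 in Het non-draining and -0.30 in KO non-draining cells. Unc93b1 was 9.53 ± 0.22 and 9.24 ± 0.15, with differences between -0.44 and -0.15 in the 4 groups. The call of Unc93b1 was the weakest. It was lost (adjusted p up to 0.0789 in limma) when any of 10 of the 16 arrays was left out, namely Het draining 2 or 4, KO draining 4, any of the 4 Het non-draining arrays, or KO non-draining 2, 3 or 4. Both arrays 3 and 4 lay below both arrays 1 and 2 in 3 of 4 groups for each of Tlr3, Tlr9 and Unc93b1. None of the 3 did so in all 4, as 1.91% of all genes did. The share of all genes that did so in 3 of 4 groups is not given here, so how unusual that count is stays unknown.

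The other 7 genes did not pass. Tlr7 had an adjusted p of 0.0457 in limma without Het non-draining array 1. Tlr2 differed by 0.11 ± 0.10, while Tlr4, Myd88, Ticam1 and Cd14 lay between -0.05 and 0.05. The Myd88 value rested on Het draining array 1 and was -0.19 without it. Its sets differed by 0.59 in Het draining cells and by between -0.20 and -0.15 in the other groups. The sets of Tlr2 opposed each other between groups, with 0.57 in KO draining and -0.11 in KO non-draining cells. Cd14 did the same, with 0.69 in KO draining and -0.42 in Het draining cells. So did Ticam1, with 0.26 in Het draining and 0.15 in KO non-draining cells, but -0.28 in KO draining and -0.26 in Het non-draining cells.

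A moderated F test that asks for any difference between the 4 numbers, with no split chosen, called 670 genes (3.36%). Of the 10 genes it called Tlr3 (adjusted p 0.00683). Unc93b1 had an adjusted p of 0.0517 and Tlr9 one of 0.117.

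**Figure D3:**
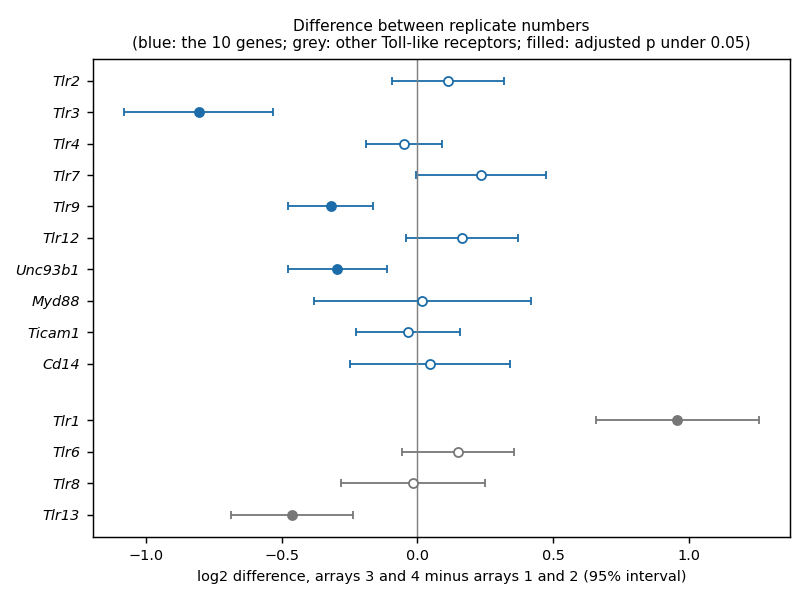
Log2 difference of arrays 3 and 4 from arrays 1 and 2, with group held fixed, for the 10 genes (blue) and the 4 other Toll-like receptors measured (grey); points are limma estimates, bars unadjusted 95% intervals from 16 arrays, and filled points have an adjusted p under 0.05. Tlr3, Tlr9, Unc93b1 and Tlr13 lie below 0 and Tlr1 lies above it, at 0.96.

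Other receptors and their partners moved with the same sets, in both directions. Tlr1, the partner of TLR2 for triacylated lipopeptides, rose by 0.96 ± 0.14 (adjusted p 0.00125) and Tlr13 fell by 0.46 (-0.46 ± 0.11, adjusted p 0.0118). Tlr1 read 5.21, 4.91, 6.76 and 6.71 in KO draining cells, the widest group. Arrays 3 and 4 lay above arrays 1 and 2 in 4 of 4 groups, as in 2.38% of all genes. Tlr13 read 8.29, 8.44, 7.28 and 7.57 in KO non-draining cells. Its arrays 3 and 4 lay below in 3 of 4 groups, a count whose share over all genes is not given here. Tlr6 and Tlr8 did not pass.

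In the 8 lists together 17 of 79 measured genes passed (21.5%, against 11.8% of all genes), 9 higher and 8 lower. The lists were chosen with earlier results in view, and this share was not tested. Most listed genes were brighter than the median gene, while the share of all genes includes dim ones, whose differences RMA compresses. The share among genes of like signal is not given here. Among co-receptors Cd180, a receptor-like protein that restrains TLR4, fell (-0.44 ± 0.11, adjusted p 0.0173) and its partner Ly86 rose (0.30 ± 0.09, 0.0433). In receptor folding and traffic 3 of 13 rose and 1 fell. Ctss, an endosomal protease that trims receptors, rose by 0.38 ± 0.09 (0.0142), Ap3b1, a subunit of the AP-3 sorting complex, by 0.38 ± 0.10 (0.0207) and Slc15a4, an endolysosomal transporter that TLR7 and TLR9 signalling needs, by 0.27 ± 0.08 (0.0318). Rab7b, a small GTPase of late endosomes, fell (-0.29 ± 0.09, 0.0485).

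Of 15 genes of proximal signalling 1 rose, Tbk1, the kinase downstream of TICAM1 (0.33 ± 0.10, adjusted p 0.0445). Among 6 transcription factors Irf3, the target of TBK1, rose (0.41 ± 0.08, 0.00601) and the NF-kappaB subunit gene Rel fell (-0.32 ± 0.06, 0.00515). Of 10 inhibitors 1 rose, Sigirr, a receptor that dampens the pathway (0.50 ± 0.12, 0.0131). Of 17 induced genes 1 rose and 3 fell: the costimulatory receptor gene Cd40 rose (0.50 ± 0.10, 0.00679), while Cd80 (-0.51 ± 0.11, 0.00837) and Cd86 (-0.28 ± 0.07, 0.0211), which encode ligands of CD28, and the chemokine gene Cxcl9 (-0.37 ± 0.08, 0.00886) fell. Of 8 cytosolic sensors 1 fell, the DNA sensor gene Aim2 (-0.38 ± 0.06, 0.00229).

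These calls were not equally firm. Ly86, Slc15a4, Rab7b and Tbk1 lost theirs when any of 11, 10, 12 and 13 of the 16 arrays was left out, and the other 13 kept theirs without each array in turn. The median differences of the lists lay between 0.02 (inhibitors) and 0.15 (co-receptors), against -0.03 over all genes and -0.01 over the 10 genes.

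**Figure D4:**
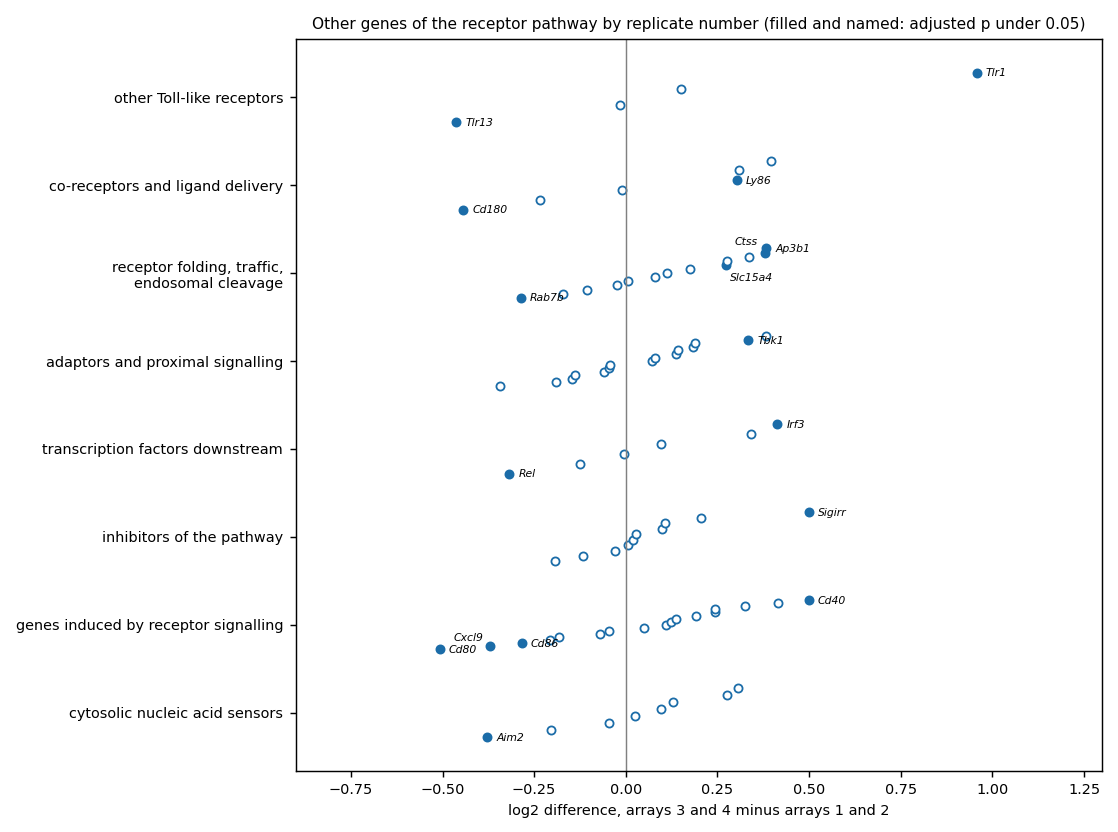
Log2 difference of arrays 3 and 4 from arrays 1 and 2 for the measured genes of 8 lists around the receptors; each point is 1 gene, its height within a list has no meaning, and filled, named points have an adjusted p under 0.05 in limma. The 17 filled points lie on both sides of 0, from -0.51 for Cd80 to 0.96 for Tlr1.

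Some markers of other cells and of the cDC1 state moved with the same sets. Of 11 T cell markers 11 read higher in arrays 3 and 4 (median 0.54) and 7 rose, where 11.8% of all genes passed in either direction; Cd3d rose by 1.00 ± 0.23 (adjusted p 0.011). Their mean level lay between 6.36 and 7.61 in arrays 1 and 2 and between 6.83 and 7.66 in arrays 3 and 4. Of 13 macrophage and monocyte markers 7 read higher and 6 lower (median 0.05). Only 3 of them rose, the complement genes C1qa, C1qb and C1qc, by between 0.54 and 0.67. Of 9 plasmacytoid markers 3 rose and 1 fell, and of 8 skin migratory dendritic cell markers 2 rose. Of 11 B cell markers, 8 cDC2 markers and 9 neutrophil markers 0 passed. Of 12 cDC1 markers 5 passed: Xcr1 (-0.44 ± 0.10), Cadm1 (-0.44 ± 0.08) and Naaa (-0.28 ± 0.07) fell, and Batf3 (0.54 ± 0.07) and Zbtb46 (0.27 ± 0.08) rose. Wdfy4 fell too (-0.40 ± 0.08, adjusted p 0.00601). The part of any of these in the readings of Tlr3, Tlr9 and Unc93b1 was not tested.

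Pairs among the 10 genes were compared over the 16 arrays, which share groups and numbers, so the correlations are descriptions. Tlr3 and Tlr9 had a Pearson r of 0.71, which was 0.70 after group means, 0.26 after set means and 0.04 after both were removed. Unc93b1 had 0.66 with Tlr3 and 0.62 with Tlr9, and 0.39 and 0.16 after both were removed. Tlr2 and Tlr12 had 0.73, and 0.70 after group means, 0.71 after set means and 0.67 after both were removed. Cd14 and Tlr2 had 0.54, and 0.55 after both were removed.

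The genes whose pattern over the 16 arrays was most like a given one were listed by Pearson r among genes with a mean log2 level of at least 6. Unc93b1 was most like Man2b1, a lysosomal mannosidase gene, and Itgax, the gene of the dendritic cell integrin CD11c (r = 0.94 each, and 0.88 each without group and set means). Tlr3 was most like Dock5 (0.92), Mbnl1 (0.92) and Cd2ap (0.91), with 0.65, 0.71 and 0.80 after the removal. Tlr9 was most like Sipa1l3 (0.90), Tlr12 like Bin1 (0.84), Tlr2 like Snx3 (0.87), Myd88 like P2rx4 (0.89), Cd14 like Coq10b (0.82) and Ctsc (0.80), Ticam1 like Msto1 (0.75), Tlr7 like Mavs (0.79) and Tlr4 like Hnrnpab (0.72). The last 2 rest on dim signals. All these genes were picked for the highest of many r values over 16 arrays. High values can arise that way without a relation, and none was tested.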

How the data were processed

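RNA of sorted cDC1 was hybridised to 16 Affymetrix arrays, 4 per group. Values in the deposited table are linear intensity, and RMA is the tool that the submitters' processing notes name for the authors' normalization; no version is given. Such normalization gives all arrays one distribution and compresses dim signals. Of 35556 probe sets, 21789 carried 1 gene symbol, 1621 several and 12146 none; the brightest probe set stood for each of 19938 genes, and each of the 10 genes had 1. log2(intensity + 1) was tested with limma 3.58.1 (R 4.3.3, two-sided tests): one fit of 4 groups (12 residual degrees of freedom), and fits of group plus array set or number, with Benjamini-Hochberg adjustment over all genes and a threshold of 0.05. Errors of differences are standard errors. Exact permutation tests over arrays were run for single genes. The fit was tested on simulated data. The genes, lists and comparisons were chosen with earlier results of these data known. The rule for names took all 10 genes and allowed the 2 genes of smallest p per list and comparison and the 3 most correlated genes. Not every gene that it allowed is named. Other names were chosen after their values were seen. Listed genes without a probe set of their own, and 4 start regions, were not analysed here. Alternatives were the replicate block, the array sets as a block, a random block, only the groups compared, pseudocounts of 0 and 16, a filter on dim genes, probe set means, median centring, repeated quantile normalization, another variance model, arrays left out and separate sets of arrays. Permutations for means and sets, correlations with means removed, and values of listed genes by set of arrays were added after seeing the data. matplotlib 3.10.9 (Python 3.11.15) drew the plots.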

Additional observations from a re-analysis of the deposited data

Results flagged for a closer look

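Cd14 in KO non-draining array 1 stood apart from the other 3 arrays of its group. It read 7.54 on the log2 scale against 7.81 for the nearest, a gap of 0.90 of the group's range, above Dixon's 95% critical value for 4 arrays. It was the only one of 40 groups of 4 arrays (10 genes in 4 groups) to do so. Chance alone flags about 1 in 20 groups, so 1 of 40 is not more than chance gives. Without that array the KO minus Het difference on the non-draining side was 0.20 instead of 0.12; it was -0.0011 without Het non-draining array 4, and -0.04 within arrays 1 and 2 and 0.29 within arrays 3 and 4.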

How the results depend on the processing

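None of the 70 differences of the 10 genes in genotype and node passed the adjusted threshold under any alternative fit; the smallest adjusted p was 0.223. Their signs were less firm: 62 of 1120 values turned when 1 array was left out, 15 of 70 within arrays 1 and 2, 22 of 70 within arrays 3 and 4 and 2 of 726 elsewhere, in differences of at most 0.32 in size. Over all genes, the replicate block called 1 gene for KO against Het over both nodes. Within arrays 3 and 4 alone limma called 4 genes between genotypes on the draining side, 2 on the non-draining side and 5 over both, and 1 gene between nodes in KO cells; the cause was not tested. Over all pairs of arrays from different groups, 18 of 24 same-numbered pairs had a correlation above 0.1 (median 0.22). So had 20 of 24 pairs of the same set but another number (median 0.23). These counts pool pairs within and between genotypes, so they do not tell whether both nodes of a mouse share a number. The fits treated arrays as unpaired unless a block is named. Without single arrays the genes called ranged from 1460 to 3398 between the sets (lowest without KO draining array 4) and from 277 to 1073 between numbers; the latter fell by more than 1.5 times without Het draining array 3, Het non-draining arrays 3 or 4, KO draining array 4 or KO non-draining arrays 2, 3 or 4, and grew as much without Het draining array 2 or KO draining array 1. Among the 10 genes the test between numbers called 2 with a pseudocount of 16, without dim genes, after median centring and after repeated quantile normalization, and 1 to 2 without single arrays; the test between sets called 2 to 3. Values of Tlr4 and Tlr7 are limited by dim signals.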
